A study of Mus musculus with 18 samples.

Results

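Semaphorins are guidance ligands, and plexins and neuropilins are the receptors that read them. The 31 mouse genes described here are the 20 semaphorins, 9 plexins and 2 neuropilins on a fixed list of symbols, out of 27179 genes counted, and all 31 were found in the counts by their Entrez identifiers. RNA was sequenced from 18 libraries of embryoid bodies made from mouse embryonic stem cells of the Ainv15 background and differentiated toward spinal motor neurons with retinoic acid and SAG, an agonist of the hedgehog pathway. All 6 groups received both factors, and each group had 3 libraries. Day 2 progenitors came from the iCre line and had no doxycycline (Dox). Control neurons were collected on day 4 from the iFlag.Hoxc6 line without Dox. The iHoxc6, iHoxc8, iHoxc9 and iHoxc10 neurons were also taken on day 4, with Dox at 3 µg/ml present for the last 48 h to induce the Flag-tagged Hox gene of the line. The transgene was a single copy at the Hprt locus and was not under a motor neuron promoter. No group had Dox without an induced Hox gene, so an effect of Dox itself cannot be separated from that of the transgene.

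The libraries came from 4 sequencing runs. Control and iHoxc6 shared a line and a run, and iHoxc9 and iHoxc10 shared a run. Day 2 and iHoxc8 each had their own run, so in every other comparison the run and the line change together with the Hox gene or the day. Total counts per library lay between 24498630 and 33168533. The induced Hox gene checked the labels: Hoxc6 stood at 500 to 532 CPM (read counts scaled to a common library size) in iHoxc6, Hoxc8 at 361 to 410 in iHoxc8, Hoxc9 at 213 to 236 in iHoxc9 and Hoxc10 at 425 to 433 in iHoxc10. In libraries of the other groups these genes reached at most 49.4 CPM for Hoxc6, in iHoxc10, and at most 0.399 CPM for the other genes. Replicate pairs differed most in day 2 and control, where replicate 3 of day 2 had a Pearson r of 0.984 and 0.987 with its partners across genes. In iHoxc8, replicate 2 stood apart, with an r of 0.9945 and 0.993 with its partners, against 0.9988 between those partners. Neuron markers summed to 359 to 754 CPM on day 2 and to 7834 to 12229 CPM on day 4. Endothelial markers summed to at most 4.72 CPM and macrophage markers to at most 1.47 CPM in any library.

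Semaphorins of class 3 are secreted and usually act through a complex of a neuropilin, which binds the ligand, and a class A plexin, which signals. Sema3e is an exception that can bind Plxnd1 without a neuropilin. Semaphorins of classes 4 to 6 are membrane proteins that mostly bind plexins directly, and Sema7a is held at the membrane by a lipid anchor and binds Plxnc1 and integrins. Plexins carry a GTPase-activating domain in the cytoplasm, through which they change the cytoskeleton of growth cones and migrating cells. In the developing spinal cord these ligands and receptors steer motor axons, help to hold motor neuron cell bodies in place and sort axons on their way into the limb and body wall.

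Stretches upstream of 3 members are shown because, in the iHox lines against control, these members carry the largest rise of a ligand, the one fall that passed the test in several lines, and the largest rise of a class A plexin. The genes lie at chr5:17574816-17730268 (Sema3c), chr5:12383161-12588953 (Sema3d) and chr1:194619791-194816869 (Plxna2), all on the + strand. The stretches are RefSeq sequences of GRCm38.p6, trimmed to end at the base before the annotated gene. The capitals mark TAAT on either strand, a core letter string associated with anterior and central Hox proteins:
Sema3c (chr5:17574566-17574815, + strand): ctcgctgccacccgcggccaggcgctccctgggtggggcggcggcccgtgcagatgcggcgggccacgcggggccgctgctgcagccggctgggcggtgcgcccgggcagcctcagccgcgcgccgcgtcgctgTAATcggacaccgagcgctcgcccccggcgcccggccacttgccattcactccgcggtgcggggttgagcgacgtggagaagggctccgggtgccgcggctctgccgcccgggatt
Sema3d (chr5:12382916-12383160, + strand): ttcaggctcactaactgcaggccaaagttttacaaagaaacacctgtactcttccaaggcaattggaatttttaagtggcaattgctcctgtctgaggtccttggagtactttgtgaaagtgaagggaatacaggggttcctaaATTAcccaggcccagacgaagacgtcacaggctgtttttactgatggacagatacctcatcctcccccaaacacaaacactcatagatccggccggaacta
Plxna2 (chr1:194619579-194619790, + strand): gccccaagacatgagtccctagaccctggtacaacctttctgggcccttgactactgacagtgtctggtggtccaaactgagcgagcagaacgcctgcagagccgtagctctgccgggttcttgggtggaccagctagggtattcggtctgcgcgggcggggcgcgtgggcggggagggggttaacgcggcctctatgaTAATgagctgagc
The Sema3c stretch (250 bases) was 78.4% G or C with 39 CpG dinucleotides. The Sema3d stretch (245 bases) was 46.1% G or C with 4 CpG dinucleotides, and the Plxna2 stretch (212 bases) was 61.8% with 13. Each held TAAT at 1 place. RefSeq windows of 250 bases before the start were matched for 26 of the 31 members, 37 windows in all. TAAT or its reverse complement ATTA occurred in 14 of these 37 windows and in 54.9% of 32851 windows of all genes. TTTAT or ATAAA, a string associated with posterior Hox proteins such as HOXC9 and HOXC10, occurred in 5 of the 37 and in 37.3% of all windows. It was absent from all the stretches shown. TGATTTAT or its reverse complement, which overlaps TTTAT, occurred in 0 of the 37 and in 0.837% of all windows. A match of letters is a description of these windows and not a binding site.

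On day 2 the receptors outweighed the ligands by more than on day 4. To compare genes with each other, levels were expressed as CPM normalized by TMM, edgeR's scaling of library sizes, per kilobase of merged exon. Summed per-kilobase levels of the 20 semaphorins were 31.8 ± 2.98 on day 2 (mean ± SD, n = 3) and 89.5 ± 6.75 in control neurons. With Dox they were 94.4 ± 5.68 (iHoxc6), 98.4 ± 10.1 (iHoxc8), 111 ± 3.17 (iHoxc9) and 120 ± 7.87 (iHoxc10). The same sums over plexins and neuropilins were 64.2 ± 10.7 on day 2 and 118 ± 20.3 in control neurons. With Dox they were 142 ± 8.76 (iHoxc6), 142 ± 21.0 (iHoxc8), 174 ± 3.97 (iHoxc9) and 193 ± 18.9 (iHoxc10). In the ligand sums, control, iHoxc6 and iHoxc8 lay within their spread of each other, as did iHoxc9 and iHoxc10. The ratio of receptors to ligands was 2.01 ± 0.152 on day 2 and 1.31 ± 0.155 in control neurons. Among the induced lines it was 1.501 ± 0.0355 (iHoxc6), 1.43 ± 0.0710 (iHoxc8), 1.57 ± 0.0123 (iHoxc9) and 1.60 ± 0.0757 (iHoxc10). These sums are given as a description, without a test.

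A few members made up most of both sums. In control neurons the highest semaphorin per kilobase was Sema4c, a class 4 ligand, at 25.5 ± 2.79, followed by Sema6c at 16.2 ± 2.14, Sema7a at 8.12 ± 0.448 and Sema6a at 6.87 ± 0.483. These 4 did not overlap in their spread. Among receptors, Plxna1, the most abundant class A plexin, led at 41.7 ± 9.70 per kilobase, followed by Plxnb1 at 22.0 ± 3.63 and Plxnb2 at 18.2 ± 3.17, whose spreads overlapped. Plxna3 (12.1 ± 0.706) and Nrp2 (10.9 ± 2.01) also overlapped, and Nrp1 stood at 6.57 ± 1.78. In iHoxc9 the per-kilobase level of Sema3c was 10.002 ± 0.964, the third highest of the ligands there, and Nrp1 was at 19.2 ± 0.821, above Plxna3 at 14.9 ± 1.04. In iHoxc10, Plxna1 reached 66.7 ± 5.45 per kilobase and Sema7a 13.2 ± 1.01. Sema4c shares 334 bases of exon with an antisense gene and Plxna1 970 bases with another, Plxnb1 257 and Plxna4 110 with further genes, and the strand setting of the counting was not stated, so their levels are uncertain. Plxnb3, a class B plexin, had 2 counts or fewer in every library, under the limit of 3 counts, and no fold is given for it.

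**Figure D1:**
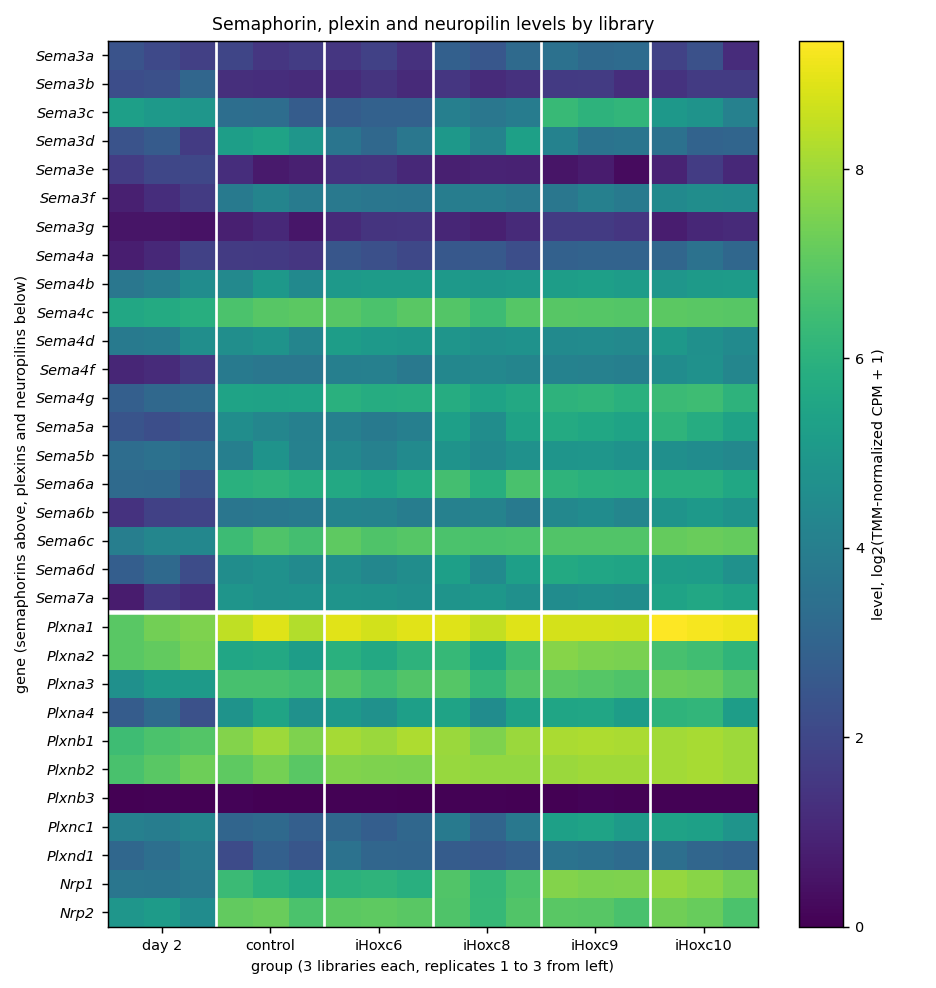
Level of each of the 31 members (rows, semaphorins above and receptors below the thick line) in each of the 18 libraries (columns, 3 per group), as log2(TMM-normalized CPM + 1). Most rows are darker on day 2 than on day 4, Plxna1 is the brightest row on day 4, and Plxnb3 is at the floor throughout.

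The largest set of changes came between day 2 progenitors and day 4 control neurons, a comparison in which the day, the line and the run differ together. Of the 31 members, 24 passed the test, 18 higher and 6 lower in control, against 42.4% of all 20944 genes tested and 57.6% of those with a mean of at least 1 CPM. Over all genes 21.2% were higher and 21.2% lower. Here passing the test means an adjusted p under 0.01 in edgeR's quasi-likelihood test over all genes. Of the 20 ligands 12 rose and 3 fell, and of the 11 receptors 6 rose and 3 fell. Under the study's stricter thresholds, which also ask for a change beyond 2 on the log2 scale, 12 members were higher and 1 was lower, against 12.6% of all genes. The median log2 fold change of the 30 members above the limit of 3 counts was 1.21, against 0.00 over all genes tested. The neuron markers rose together with these members, 7 of 7 past the test, and 7 of 7 motor neuron markers rose too. Their part in the members' change was not tested. In such bulk samples, more cells of a type and more RNA per cell cannot be told apart.

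Sema7a rose most, from 0.640, 1.86 and 1.34 CPM on day 2 to 28.5, 25.6 and 26.3 CPM in control. This was a log2 fold change of 4.38 ± 0.22 (SE), or 20.8-fold (adjusted p = 1.54e-13). Sema3f, a secreted ligand that acts mainly through Nrp2, went from 0.775, 1.33 and 2.12 CPM to 13.0, 17.6 and 13.7 CPM, a log2 fold change of 3.37 ± 0.23. Nrp2 itself went from 29.5, 34.1 and 22.1 CPM to 137, 149 and 103 CPM, a log2 fold change of 2.18 ± 0.19. The ligand and its neuropilin thus both rose, with no overlap between the groups. Sema3d, another secreted ligand, went from 4.28, 5.39 and 2.09 CPM to 37.4, 42.0 and 29.4 CPM (log2 fold change 3.21 ± 0.31). Sema4f, a membrane-bound class 4 ligand, went from 1.01, 1.23 and 1.97 CPM to 13.6, 12.1 and 12.2 CPM (3.16 ± 0.20). Sema6a, a transmembrane ligand of class A plexins, went from 8.42, 8.15 and 4.47 CPM to 60.4, 64.5 and 56.1 CPM (3.11 ± 0.22). All 4 class 6 semaphorins rose, Sema6b by 2.42, Sema6c by 2.44 and Sema6d by 1.98 on the log2 scale.

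The 6 members that fell from day 2 to control included 3 secreted ligands and 3 plexins. Sema3c, a ligand known from the migration of neural crest cells and the outflow tract of the heart, stood at 38.2, 32.0 and 29.4 CPM on day 2 and at 9.41, 9.24 and 5.54 CPM in control, a log2 fold change of -2.04 ± 0.21 (adjusted p = 2.59e-08). Plxna2, which with a neuropilin forms receptors for class 3 semaphorins and also binds class 6 ones directly, stood at 125, 139 and 174 CPM on day 2 and at 45.3, 49.2 and 36.3 CPM in control (log2 fold change -1.74 ± 0.20). Plxnc1, the plexin that binds Sema7a, fell from 15.8, 14.4 and 17.6 CPM to 7.29, 8.20 and 6.06 CPM (-1.15 ± 0.20). Its ligand Sema7a moved the opposite way. Sema3b fell by 1.91, Sema3e by 1.54 and Plxnd1 by 1.12 on the log2 scale. Plxnd1 had an adjusted p of 0.0119 in a fit of only these 2 groups.

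**Figure D2:**
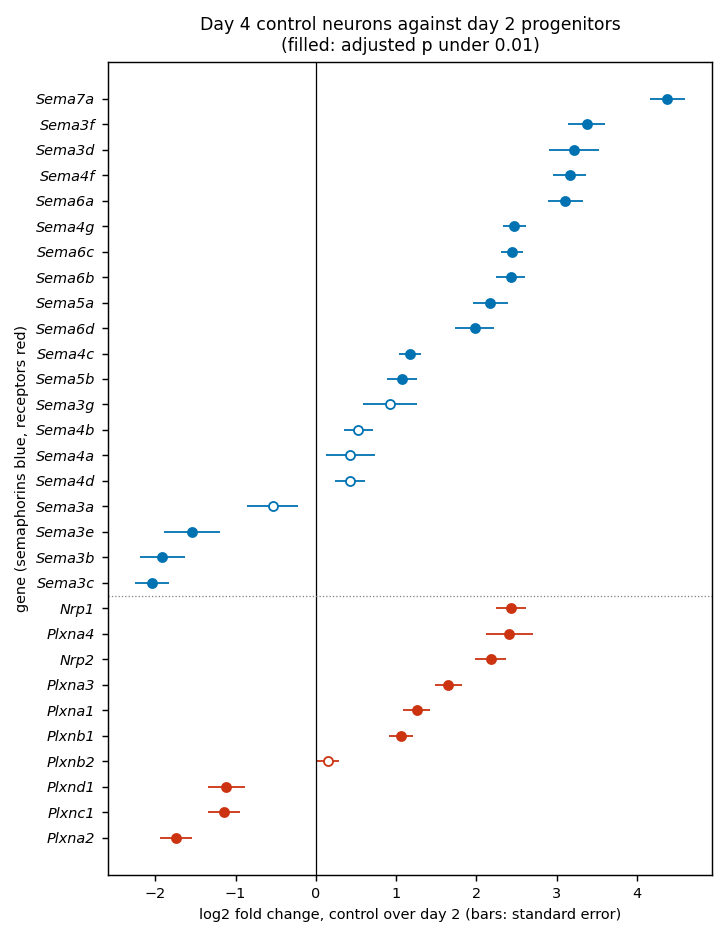
Log2 fold change of control over day 2 (horizontal axis, with standard errors) for the 30 members above the limit of 3 counts, semaphorins in blue and receptors in red, filled where the adjusted p is under 0.01. Sema7a stands farthest right at 4.38, and Sema3c (-2.04) and Plxna2 (-1.74) are the lowest ligand and receptor.

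In iHoxc6 neurons, which share the line and the run of the controls, Sema3d was the one member that passed the test, against 0.587% of all genes tested (0.363% higher and 0.224% lower) and 0.872% of those with a mean of at least 1 CPM. It stood at 37.4, 42.0 and 29.4 CPM in control and at 11.6, 7.90 and 12.2 CPM in iHoxc6. The groups did not overlap, and the level was 3.44-fold lower (log2 fold change -1.78 ± 0.29, adjusted p = 0.00147). The adjusted p was 0.0107 without iHoxc6 replicate 1 and 0.0168 without iHoxc6 replicate 2, so the call was lost without either. Of the 31 members 12 had an unadjusted p under 0.05. By the study's thresholds 0 members were called by edgeR and 0 by DESeq2, against 0.115% of all genes, and 0 had an unadjusted p under 0.05 with a log2 fold change beyond 2. The remaining 29 members above the limit of 3 counts had log2 fold changes up to 0.97 (Sema4a, adjusted p = 0.0622). The median over the 30 members was 0.08, against 0.00 over all genes. Motor neuron markers summed to 391 to 445 CPM in iHoxc6 and to 544 to 571 CPM in control, with 1 of 7 past the test. Floor plate markers summed to 559 to 779 CPM against 363 to 471 CPM, with 0 of 4 past the test. Interneuron markers summed to 10.6 to 13.3 CPM against 16.3 to 20.4 CPM, with 1 of 8 lower. The part of these markers in the fall of Sema3d was not tested.

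In iHoxc8 neurons 2 members rose and 0 fell, against 2.12% of all genes tested (1.03% higher and 1.09% lower) and 3.15% of those with a mean of at least 1 CPM. At an unadjusted p under 0.05 the count was 14, and DESeq2 called 6. Sema3a, the secreted semaphorin best known for collapsing growth cones, stood at 2.86, 1.77 and 2.13 CPM in control and at 6.27, 4.84 and 8.48 CPM in iHoxc8, with no overlap (log2 fold change 1.53 ± 0.31, adjusted p = 0.00547). Plxnb2, a receptor for class 4 semaphorins, went from 132, 169 and 122 CPM to 241, 226 and 227 CPM (0.72 ± 0.15, adjusted p = 0.00562). Sema3a had an adjusted p of 0.0465 without control replicate 3, 0.0211 without iHoxc8 replicate 1 and 0.0445 without iHoxc8 replicate 3. Plxnb2 was at 0.0505 in a fit of only these 2 groups and at 0.0232 without control replicate 1. Without control replicate 3, iHoxc8 replicate 1 or iHoxc8 replicate 3 the count was 0, and without iHoxc8 replicate 2 it was 4. Sema3d, which fell in iHoxc6, stood at 30.6, 17.0 and 38.6 CPM in iHoxc8 and overlapped control (log2 fold change -0.33 ± 0.28, adjusted p = 0.52). Among members that did not pass, Sema4a had a log2 fold change of 1.22 (adjusted p = 0.0124), Sema5a 0.83 (0.0139) and Sema3c 0.80 (0.0216). The study's thresholds gave 0 members in iHoxc8 with edgeR and 0 with DESeq2, against 0.22% of all genes, and 0 also with an unadjusted p under 0.05. Motor neuron markers summed to 431 to 468 CPM in iHoxc8, under the 544 to 571 CPM of control, with 2 of 7 lower. Floor plate markers summed to 545 to 618 CPM against 363 to 471 CPM, with 0 of 4 past the test. In iHoxc8 1 of 7 neuron markers and 1 of 7 ventral progenitor markers rose, and 1 of 8 interneuron markers fell. The part of these markers in the rise of Sema3a and Plxnb2 was not tested.

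In iHoxc9 neurons 14 of the 31 members passed the test, 13 higher and 1 lower than control. Over all genes tested the share was 14.1%, and over genes with a mean of at least 1 CPM it was 20%; among the members it was 45.2%. Over all genes 6.95% were higher and 7.13% lower. The 14 were 9 of the 20 ligands, 8 of them higher, and 5 of the 11 receptors, all higher. The median log2 fold change of the 30 members was 0.49, against 0.00 over all genes. Without control replicate 3 the count was 9, with 8 higher. Sema3g, Sema4g, Sema6b, Sema6d and Plxnd1 then had adjusted p between 0.0105 and 0.0222. Without control replicate 2 the count was 17.

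The ligand that changed most in iHoxc9 was Sema3c. It stood at 9.41, 9.24 and 5.54 CPM in control and at 78.5, 64.8 and 70.9 CPM in iHoxc9. The lowest iHoxc9 library was far above the highest control library, and the level was 8.84-fold higher (log2 fold change 3.14 ± 0.22, adjusted p = 5.70e-10). Its day 2 libraries, at 29.4 to 38.2 CPM, lay between the groups. Sema3a went from 2.86, 1.77 and 2.13 CPM to 10.2, 8.18 and 8.64 CPM (1.99 ± 0.31, adjusted p = 6.76e-05). Sema4a, a membrane-bound class 4 ligand, went from 2.12, 2.04 and 1.76 CPM to 6.49, 6.95 and 6.89 CPM (1.78 ± 0.28). Its exons share 73 bases with a microRNA gene, so its level is uncertain to that extent. Sema5a, a ligand with thrombospondin repeats, went from 23.0, 18.8 and 15.7 CPM to 51.9, 46.0 and 41.5 CPM (1.28 ± 0.20). None of these 4 overlapped control.

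Weaker rises among the ligands were seen for Sema3g, a secreted semaphorin, which went from 0.771, 1.12 and 0.487 CPM to 2.11, 2.09 and 1.79 CPM (log2 fold change 1.34 ± 0.29), and for Sema6b, a transmembrane ligand, which went from 11.9, 12.3 and 13.1 CPM to 19.8, 22.1 and 18.8 CPM (0.70 ± 0.16). Sema6b had an adjusted p of 0.0128 without control replicate 1, 0.0181 without iHoxc9 replicate 2 and 0.01004 without iHoxc9 replicate 3. Sema6d rose by 1.00 and Sema4g by 0.64 on the log2 scale. Sema6d was at 0.0110 without control replicate 1 and at 0.0120 without iHoxc9 replicate 1, and Sema4g at 0.0111 without iHoxc9 replicate 2. Sema3d was the one member to fall, from 37.4, 42.0 and 29.4 CPM to 16.7, 10.8 and 11.5 CPM (-1.48 ± 0.29, adjusted p = 0.00065).

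Among the receptors in iHoxc9, Plxnc1 went from 7.29, 8.20 and 6.06 CPM to 39.4, 41.5 and 33.5 CPM, a 5.31-fold rise (log2 fold change 2.41 ± 0.21, adjusted p = 1.34e-08). Its ligand Sema7a stood at 28.5, 25.6 and 26.3 CPM in control and at 22.5, 24.5 and 23.0 CPM in iHoxc9, with an adjusted p of 0.47. Plxna2 went from 45.3, 49.2 and 36.3 CPM to 202, 183 and 177 CPM, 4.29-fold (2.10 ± 0.20, adjusted p = 7.38e-08). Nrp1, the neuropilin that binds Sema3a and also vascular endothelial growth factor, went from 83.1, 61.3 and 48.6 CPM to 197, 182 and 185 CPM (1.55 ± 0.18, adjusted p = 9.42e-07). Nrp2, which binds Sema3f, was at 137, 149 and 103 CPM in control and at 124, 120 and 99.6 CPM in iHoxc9 and overlapped (-0.18 ± 0.18, adjusted p = 0.518). The difference between the neuropilins was not itself tested. Plxnd1, the receptor of Sema3e, went from 3.44, 6.35 and 4.60 CPM to 10.8, 9.86 and 8.72 CPM (1.03 ± 0.23). Plxnd1 had an adjusted p of 0.0193 without control replicate 1 and 0.0125 without iHoxc9 replicate 1. Plxnb2 rose by 0.86 on the log2 scale. The members past the study's thresholds were Sema3c, Plxnc1 and Plxna2, against 2.7% of all genes, and Sema3a lay just under at 1.99. Plxnc1 shares 115 bases of exon with another gene on its strand and Nrp1 80 bases with a microRNA gene.

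**Figure D3:**
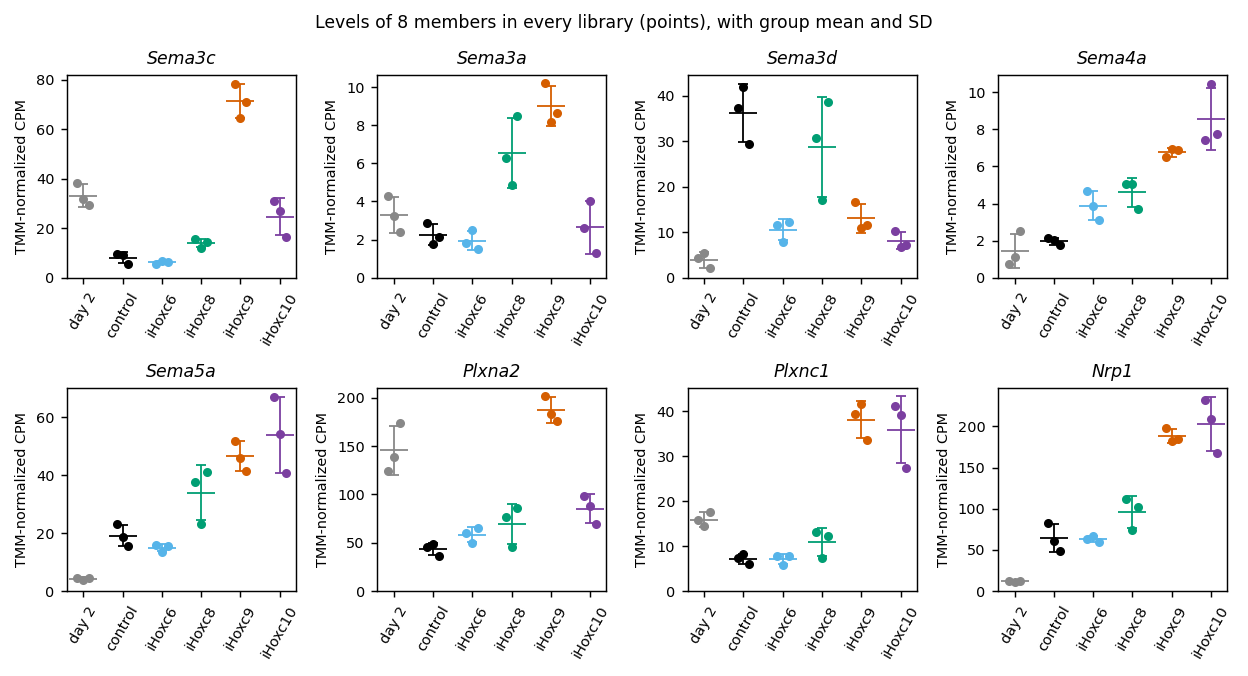
TMM-normalized CPM (vertical axes, each from 0) of 8 members in each library (points), with group means (long bars) and SD (error bars), n = 3. Sema3c and Plxna2 are highest in iHoxc9, Plxnc1 and Nrp1 are high in iHoxc9 and iHoxc10 alike, and Sema3d is low in iHoxc6, iHoxc9 and iHoxc10 but not in iHoxc8.

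In iHoxc10 neurons 14 members passed as well, 13 higher and 1 lower than control, against 14.4% of all genes tested (6.67% higher and 7.75% lower) and 21.4% of those with a mean of at least 1 CPM. Again 8 ligands rose and 1 fell, and 5 receptors rose. The median log2 fold change of the 30 members was 0.58, against 0.00 over all genes, and 28 of the 30 had a value above 0. Plxnc1 stood at 41.2, 39.1 and 27.4 CPM, against 7.29, 8.20 and 6.06 CPM in control (2.32 ± 0.20, adjusted p = 5.62e-08). Nrp1 stood at 232, 208 and 167 CPM, against 83.1, 61.3 and 48.6 CPM (1.66 ± 0.18, adjusted p = 7.85e-07). Every iHoxc10 library was above every control library for both receptors. Plxna2, at 98.4, 88.2 and 69.0 CPM, rose by 0.97 ± 0.20 (adjusted p = 0.000942), Plxnb2 by 0.92 and Plxna1 by 0.68 on the log2 scale. The call of Plxna1 was lost in a fit of only these 2 groups (adjusted p = 0.0212) and without control replicate 1 (0.0297), control replicate 3 (0.0381), iHoxc10 replicate 1 (0.0317) or iHoxc10 replicate 2 (0.0239).

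Among the ligands in iHoxc10, Sema4a stood at 7.42, 10.5 and 7.74 CPM, against 2.12, 2.04 and 1.76 CPM in control, a 4.32-fold rise (log2 fold change 2.11 ± 0.29, adjusted p = 1.69e-05). Sema3c stood at 30.95, 26.8 and 16.4 CPM (1.62 ± 0.21) and Sema5a at 66.9, 54.1 and 40.6 CPM (1.49 ± 0.20). Sema6b stood at 28.0, 31.6 and 27.1 CPM (1.22 ± 0.16). Sema3a, at 2.59, 4.05 and 1.296 CPM, overlapped control (0.23 ± 0.32, adjusted p = 0.667). Sema4g rose by 0.92, Sema4f by 0.82, Sema7a by 0.70 and Sema6c by 0.57 on the log2 scale. Sema4f was at 0.0186 without iHoxc10 replicate 2. Sema6c was at 0.0203 in a fit of only these 2 groups, 0.0156 without control replicate 1 and 0.0180 without iHoxc10 replicate 2. Sema7a was at 0.0117 to 0.0397 without any single control library or without iHoxc10 replicate 1 or 2. Sema3d fell to 10.2, 6.81 and 7.21 CPM, 4.48-fold under control (-2.16 ± 0.30, adjusted p = 1.93e-05). By the study's thresholds Plxnc1, Sema4a and Sema3d were called, against 1.48% of all genes. iHoxc9 and iHoxc10 were compared with the same 3 control libraries, and both came from a run that was not the run of control. Their calls are therefore not independent of each other.

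**Figure D4:**
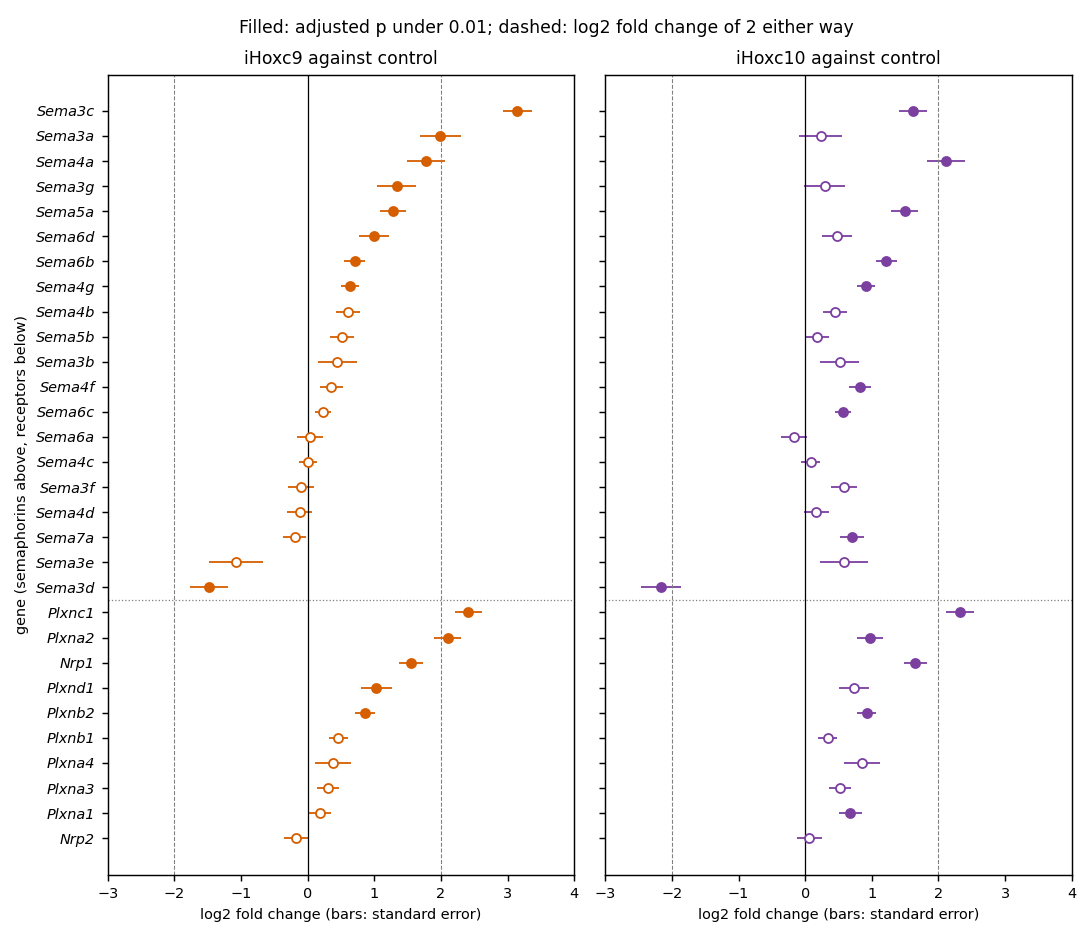
Log2 fold change against control (horizontal axes, with standard errors) of the 30 members above the limit of 3 counts in iHoxc9 (left) and iHoxc10 (right), both against the same 3 control libraries. Filled points have an adjusted p under 0.01 and dashed lines mark a log2 fold change of 2 either way; Sema3c reaches 3.14 in iHoxc9, and Sema3d is the lowest point in both panels.

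Cell type markers also moved in these lines. Neuron markers summed to 10856 to 12229 CPM in iHoxc10, above the 7953 to 8745 CPM of control without overlap, with 2 of 7 higher and 0 lower. In iHoxc9 they summed to 8183 to 9452 CPM, with 1 of 7 higher and 0 lower. Motor neuron markers summed to 298 to 324 CPM in iHoxc9, 486 to 547 CPM in iHoxc10 and 544 to 571 CPM in control, with 4 of 7 lower in iHoxc9 and 2 of 7 lower in iHoxc10. Interneuron markers summed to 35.4 to 45.3 CPM in iHoxc9, 63.6 to 86.1 CPM in iHoxc10 and 16.3 to 20.4 CPM in control. Of the 8 interneuron markers 3 rose and 1 fell in iHoxc9, and 2 rose and 0 fell in iHoxc10. Sim1 had a mean of 17.1 CPM in iHoxc9 and 5.31 in iHoxc10, against 0.461 in control, and rose in both lines. Lhx1, at 14.2 CPM in control, was the one that fell in iHoxc9, to 3.87 CPM, and it rose to 66.2 CPM in iHoxc10. Lhx1 alone thus made up most of the interneuron sum in control and in iHoxc10. Floor plate markers summed to 236 to 355 CPM in iHoxc9 and 363 to 471 CPM in control, with Shh at 5.13 against 27.2 CPM. Ventral progenitor markers had 3 of 7 higher and 2 of 7 lower in iHoxc9, and 1 higher and 3 lower in iHoxc10. The part of these shifts in the changes of semaphorins and their receptors was not tested. Mesenchymal markers summed to at most 9.12 CPM, pluripotency markers to at most 1.00 CPM and endoderm markers to at most 17.1 CPM in any day 4 library. Neural crest and glial markers summed to 80.8 to 101 CPM in control, 86.1 to 95.8 CPM in iHoxc9 and 127 to 159 CPM in iHoxc10, of which Mbp alone had a mean of 85.6, 86.2 and 143 CPM. Sox10, their defining factor, had a mean of at most 1.07 CPM in any group.

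iHoxc9 and iHoxc10 neurons share a run and were compared directly, a comparison in which the line and the Hox gene differ. In the single fit of 18 libraries 5 members passed, 3 higher and 2 lower in iHoxc9, against 4.99% of all genes tested (2.6% higher and 2.4% lower) and 6.81% of those with a mean of at least 1 CPM. Sema3a was higher in iHoxc9 by 1.76 ± 0.31 on the log2 scale (3.38-fold, adjusted p = 0.000456), Sema3c by 1.53 ± 0.20 (adjusted p = 1.56e-05) and Plxna2 by 1.14 ± 0.19 (adjusted p = 0.000365). For each of these 3 the lowest iHoxc9 library was above the highest iHoxc10 library. Sema3e, the ligand of Plxnd1, stood at 0.430, 0.647 and 0.199 CPM in iHoxc9 and at 0.910, 2.15 and 1.09 CPM in iHoxc10 (-1.65 ± 0.39, adjusted p = 0.00805). Sema7a stood at 22.5, 24.5 and 23.0 CPM in iHoxc9 and at 42.3, 47.4 and 41.1 CPM in iHoxc10 (-0.90 ± 0.18, adjusted p = 0.00142). The adjusted p of Sema3e was 0.0322 without iHoxc9 replicate 1, 0.0531 without iHoxc9 replicate 3 and 0.100 without iHoxc10 replicate 2. That of Sema7a was 0.0107 without iHoxc9 replicate 1 and 0.0103 without iHoxc10 replicate 2, and without either library the count was 3. By edgeR, by DESeq2 and at an unadjusted p under 0.05 alike, 0 members also had a log2 fold change beyond 2, against 1.31% of all genes. Among spinal cord markers, 1 of 7 motor neuron, 3 of 8 interneuron and 3 of 7 ventral progenitor markers were higher in iHoxc9. Lower in iHoxc9 were 4 of 7 motor neuron, 1 of 8 interneuron, 2 of 4 floor plate and 1 of 7 neuron markers. The part of these markers in the members' differences was not tested.

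Same-numbered iHoxc9 and iHoxc10 libraries deviated together from their group means, and a fit of these 2 groups with the number as a block called more members. The labels do not say that equal numbers mark pairs. The block was added after seeing the data and left 2 residual degrees of freedom, so its calls hold only if the pairing is real. On the 14426 genes with at least 10 counts in 3 of the 6 libraries, 20 of the 30 members that could be fitted passed with the block, 7 higher and 13 lower in iHoxc9, against 36% of the genes fitted (17.4% higher and 18.5% lower). The limma-voom test called 20 as well, against 35.9%. Without the block a fit of the same 2 groups called 12 members, against 10.5% of 20944 genes. By the blocked fit 6 ligands were higher and 9 lower in iHoxc9, and 1 receptor was higher and 4 were lower. Of the secreted ligands, Sema3d was higher (0.64, blocked adjusted p = 1.74e-05) and Sema3f lower (-0.72, 6.75e-07). The receptors lower in iHoxc9 were Plxna1 (log2 fold change -0.53, blocked adjusted p = 2.25e-07), Plxna3 (-0.25), Plxna4 (-0.48) and Nrp2 (-0.27). In the single fit of 18 libraries Plxna1 had an adjusted p of 0.0824 and Plxna4 of 0.385. Plxnc1 and Nrp1, which rose in both lines against control, differed by 0.06 and -0.14 on the log2 scale with blocked adjusted p of 0.537 and 0.0814. Of the 20 members, 19 had all 3 pairs in the same direction, the exception being Sema5a. The blocked test used these same pairs, so this agreement is not separate evidence. Some members that did not pass, such as Sema4b and Plxnb1, also had all 3 pairs in the same direction.

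**Figure D5:**
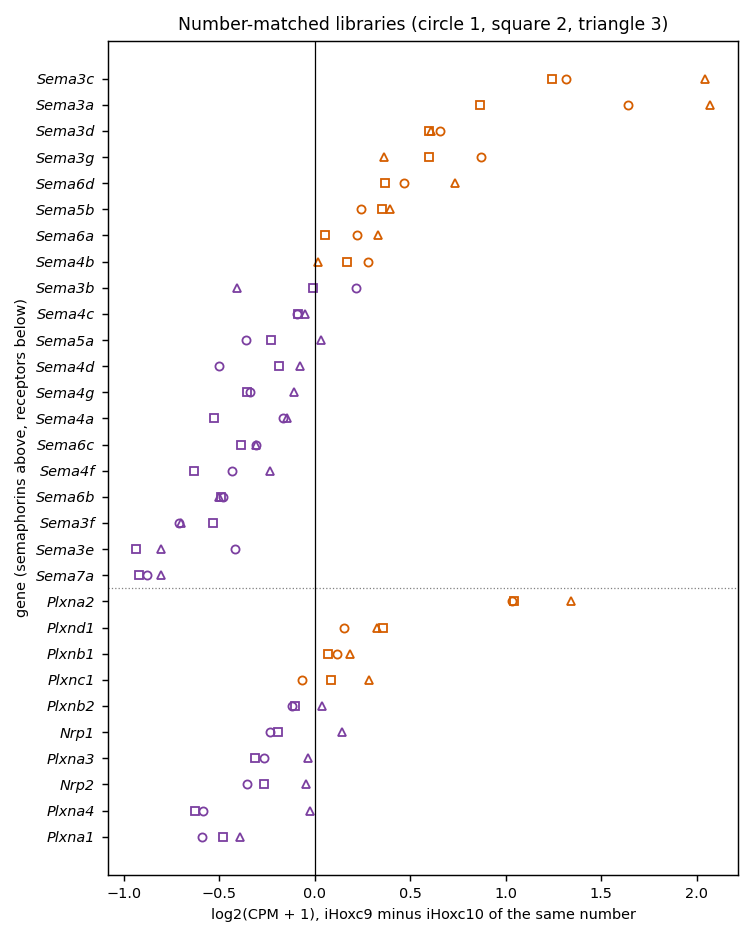
Difference in log2(CPM + 1) between the iHoxc9 and the iHoxc10 library of the same number (horizontal axis; circle, square and triangle for numbers 1 to 3) for 30 members, with semaphorins above the dotted line and receptors below. Sema3c, Sema3a and Plxna2 lie well right of 0 in all 3 pairs, and Sema7a lies between -0.92 and -0.81.

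Sema3c, Plxna2, Plxnc1 and Plxnd1 fell from day 2 to control and were higher in iHoxc9 than in control. The 2 comparisons share the control libraries, so the levels are set side by side. Mean Sema3c was 33.2 CPM on day 2, 8.06 in control, 71.4 in iHoxc9 and 24.7 in iHoxc10. Mean Plxna2 was 146, 43.6, 187 and 85.2 CPM in the same order, and mean Plxnc1 was 15.9, 7.19, 38.1 and 35.9 CPM. Mean Plxnd1 was 10.4, 4.80, 9.78 and 7.95 CPM. Sema3d ran the other way, at 3.92 CPM on day 2 and 36.3 in control. Its means with Dox were 10.5 CPM (iHoxc6), 28.7 CPM (iHoxc8), 13.0 CPM (iHoxc9) and 8.08 CPM (iHoxc10).

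Other genes of the pathway were taken from lists of co-receptors and partners (20 of 21 tested) and of signal transducers (38 tested). Of the co-receptors and partners 5 rose and 1 fell in iHoxc9, 5 rose and 0 fell in iHoxc10, and 2 rose in iHoxc8. In iHoxc6 edgeR called 0, DESeq2 called 1 and 6 had an unadjusted p under 0.05. Over all genes tested 14.1% passed in iHoxc9, 14.4% in iHoxc10, 2.12% in iHoxc8 and 0.587% in iHoxc6. Over genes with a mean of at least 1 CPM the shares were 20%, 21.4%, 3.15% and 0.872%. Met, a receptor tyrosine kinase that can associate with class B plexins, stood at 10.8, 8.05 and 7.04 CPM in control, 23.9, 24.01 and 24.6 CPM in iHoxc8, 51.7, 53.4 and 44.4 CPM in iHoxc9 and 35.2, 32.6 and 20.5 CPM in iHoxc10. It passed the test in iHoxc8 (log2 fold change 1.48 ± 0.23), iHoxc9 (2.53 ± 0.23) and iHoxc10 (1.77 ± 0.23). Chl1, an adhesion molecule that can join Nrp1 in the Sema3a receptor, rose by 1.5 ± 0.29 in iHoxc9 and by 1.70 ± 0.29 in iHoxc10. Itga1, an integrin subunit that with its partner can bind Sema7a, stood at 3.48, 2.47 and 2.43 CPM in iHoxc9 and at no more than 0.750 CPM in any library of another group. It had 2 counts or fewer in each control library. Cntn2, an axonal adhesion molecule, fell in iHoxc9 by 1.35 on the log2 scale (adjusted p = 0.00445), and Nrcam, which associates with neuropilins, rose in iHoxc10 by 0.93. Between iHoxc9 and iHoxc10, Itga1 was the one partner higher in iHoxc9 and Sdc3, a heparan sulfate proteoglycan, the one lower (-0.57). Of all genes tested 4.99% passed in that comparison. From day 2 to control 7 of the 20 rose and 6 fell, with a median log2 fold change of -0.06 against 0.00 over all genes. Of all genes tested 42.4% passed there, and 57.6% of those with a mean of at least 1 CPM. L1cam, an adhesion molecule that joins Nrp1 in the Sema3a receptor, rose by 4.21 and Cntn2 by 4.89 on the log2 scale.

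Of the 38 signal transducers, 9 rose and 2 fell in iHoxc9, and the counts were also 9 and 2 in iHoxc10, with 1 riser in iHoxc8. Over all genes tested 14.1% passed in iHoxc9, 14.4% in iHoxc10, 2.12% in iHoxc8 and 0.587% in iHoxc6. Over genes with a mean of at least 1 CPM the shares were 20%, 21.4%, 3.15% and 0.872%. In iHoxc6 edgeR called 0, DESeq2 called 1 and 8 had an unadjusted p under 0.05. Rnd1, a small GTPase that binds the cytoplasmic part of plexins, went from 3.61 to 8.91 CPM in iHoxc9 (log2 fold change 1.31 ± 0.20, adjusted p = 4.95e-05). Rnd3, its relative, rose by 0.96 and Arhgef12, a guanine nucleotide exchange factor bound by class B plexins, by 0.79. In iHoxc10 Dpysl4 rose by 0.77 and Dpysl5 by 0.68, both of the collapsin response mediator family, which acts downstream of Sema3a, while Rhod, a small GTPase, fell by 1.37. Gsk3b, a kinase that phosphorylates proteins of that family, rose by 0.77 in iHoxc9 and 0.83 in iHoxc10. Between iHoxc9 and iHoxc10, Rnd1 (0.84) and Rhod (1.37) were higher and Mical3 (-0.76) and Dpysl3 (-0.71) lower in iHoxc9. These were the 4 of 38 that passed, against 4.99% of all genes tested. From day 2 to control 21 of the 38 rose and 5 fell. Of all genes tested 42.4% passed there, and 57.6% of those with a mean of at least 1 CPM. Crmp1 (83.1 to 1164 CPM) and Dpysl3 (68.3 to 742 CPM) were among the risers. The lists were read as counts beside the background shares given above for each comparison, without a test of the list.

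The genes whose pattern was most like that of Sema3c were sought among 13192 genes with a mean of at least 1 CPM, by Pearson r of log2(CPM + 1) over the 18 libraries. They were Tox3 (r = 0.953), Isoc1 (0.948) and Apln (0.936). Tox3 went from 30.9 CPM on day 2 to 8.13 in control and 44.7 in iHoxc9. Those most like Plxnc1 were Fign (0.966), Tmcc3 (0.955) and Sall3 (0.948), with Sall3 at 10.9 CPM in control, 60.7 in iHoxc9 and 42.8 in iHoxc10. The libraries share groups and runs, so these r values are a description with no p.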

How the data were processed

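RNA-seq counts of 18 libraries were used. The authors aligned single-end reads with STAR (2.7.0c) to mm10, counted them per RefSeq gene with featureCounts and deposited raw read counts per Entrez identifier, not normalized, with 1 column for each replicate. The libraries were polyA-selected with a stranded kit, and the strand setting of the counting is not given in the sources used here. Of 27179 identifiers 25275 matched a symbol in RefSeq for GRCm38.p6, the assembly that mm10 names, which also gave gene coordinates; merged exon lengths and exon overlaps come from GENCODE M21 for GRCm38. Total counts were 24498630 to 33168533, and the limit of 3 counts covers counting error only.

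Counts were tested in R 4.3.3 with edgeR 4.0.16 (TMM, quasi-likelihood test) in 1 model of all 18 libraries with group as its term. It covered the 20944 genes that any iHox library counted at least once, with 12 residual degrees of freedom and Benjamini-Hochberg adjustment over all genes. DESeq2 (1.42.0) was an alternative, and the others were its size factors, a filter of 10 counts in 3 libraries, no filter, a model of the compared groups alone, a block for the replicate number, a log2 fold change beyond 1 and each library left out. The labels number the libraries 1 to 3 in each group. The study describes its day 4 RNA-seq replicates as independent differentiations; for the day 2 libraries this is not given in the sources used here, so their p-values measure the spread between libraries, which may be technical.

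Deviations from the group means of same-numbered iHoxc9 and iHoxc10 libraries correlated at r = 0.579, 0.474 and 0.651, a pairing that rests on the data and not on the labels. The blocked fit of these 2 groups was added after seeing the data. Over all 20944 genes it gave an infinite prior degree of freedom, which ignores each gene's own spread, so it was refitted over 14426 genes with at least 10 counts in 3 of the 6 libraries (prior 14.1, residual 2) and again with limma-voom (limma 3.58.1).

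On simulated data, edgeR recovered 77% of the genes simulated at a log2 fold change of 1 and 100% of those at 2 in iHoxc9 against control, with 3 false calls among 20447 genes. In the blocked design of iHoxc9 against iHoxc10 it recovered 98% and 100%, with 3 false calls among 14244 genes. Each simulation changed 200 genes, whereas on the real data 2950 were called in iHoxc9 against control and 5189 by the blocked fit. The first simulation also gave all groups the same spread for a gene. Real replicate pairs had a Pearson r of 0.989 to 0.996 in control and of 0.998 in iHoxc9. The first simulation therefore cannot show how many of the real calls against control are false. The blocked simulation took the shifts between same-numbered libraries as given. It therefore cannot show whether the pairing is real or how many of the real blocked calls are false. Named with all values were the members past the test with a log2 fold change of at least 1 in an iHox comparison and a mean of at least 1 CPM in either group, and the 5 with the largest change from day 2. Up to 4 genes per pathway list and comparison were named. Nrp2, Plxnb2, the members beside a lost call and the marker genes quoted were added after their values were seen. The members, gene lists, marker lists and tests were chosen with earlier results of these data known.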

Additional observations from a re-analysis of the deposited data

Results flagged for a closer look

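The effects of the 2 posterior Hox lines that share a run, both measured against the same control libraries, differed for 5 members by the test of iHoxc9 against iHoxc10. The difference of the effects (iHoxc9 minus iHoxc10, on the log2 scale) was 1.76 for Sema3a, 1.53 for Sema3c, -1.65 for Sema3e, -0.90 for Sema7a and 1.14 for Plxna2. Sema3a rose against control in iHoxc9 (1.99) and had a value of 0.23 in iHoxc10. Sema7a had a value of -0.20 in iHoxc9 and rose by 0.70 in iHoxc10. Sema3c and Plxna2 rose in both lines, by 3.14 and 2.10 in iHoxc9 and by 1.62 and 0.97 in iHoxc10. Sema3e passed the test in neither line against control (-1.07 and 0.58), and its levels were at most 2.15 CPM in these libraries. With 3 libraries per group, no search for outlying libraries was made.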

How the results depend on the processing

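Of 36 results for single members in the iHox comparisons, 22 kept their direction and their side of the threshold in every alternative fit. Another 14 lost their call in at least 1, and 0 changed direction. The cut at a log2 fold change beyond 1 is not among these fits. Under that cut Plxnb2 in iHoxc9 (0.86) and Plxnb2 (0.92), Sema4g (0.92) and Plxna2 (0.97) in iHoxc10 also lost their call. From day 2 to control 13 results were followed, a part of the 24 that passed there. Of these 13, 12 kept both in every alternative fit, and Plxnd1 lost its call in 1. In iHoxc6 the count of members called, 1, ranged from 0 to 2 with single libraries left out. In iHoxc8 the count, 2, was 1 without a count filter, 1 in a fit of only the groups compared, 1 with a log2 fold change beyond 1 and 6 by DESeq2, and ranged from 0 to 4 with single libraries left out. In iHoxc9 the count, 14, was 10 with a log2 fold change beyond 1 and ranged from 9 (without control replicate 3) to 17 with single libraries left out. In iHoxc10 the count of 14 became 7 with a log2 fold change beyond 1, 12 in a fit of only the groups compared and 17 by DESeq2. With single libraries left out it ranged from 10 (without iHoxc10 replicate 2) to 16. For iHoxc9 against iHoxc10 the count of 5 was 12 in a fit of only these groups, 8 by DESeq2 and 3 to 5 with single libraries left out. With the replicate block in a fit of these groups it was 20 by edgeR on filtered genes, 20 by limma-voom and 21 over all genes, the last from the fit with the infinite prior, whose p-values were not used. At the study's thresholds that comparison's count of 0 ranged from 0 to 1. The replicate block in the fit of 18 libraries left every member count the same. In the comparisons other than iHoxc9 against iHoxc10 the same-numbered libraries did not deviate together in all pairs, so the numbers were not taken as pairs. Median shifts of all genes under DESeq2's size factors were under 0.05 on the log2 scale. The depth limits Plxnb3 and, at under 1 CPM in several groups, Sema3e and Sema3g.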
